A study of Mus musculus with 12 samples.

Results

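The Fc gamma receptor genes are the genes through which cells of the innate immune system read immunoglobulin G (IgG), and 6 of them were taken by name from the 55573 genes of the count table. They were the activating receptors Fcgr1, Fcgr3 and Fcgr4, the inhibitory receptor Fcgr2b, the shared signalling subunit Fcer1g and the neonatal Fc receptor Fcgrt. Of these 6 genes, 5 passed the expression filter that left 14008 genes for testing, and Fcgr4 did not.

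An activating receptor binds IgG outside the cell and pairs in the membrane with the Fc receptor gamma chain, the product of Fcer1g, whose cytoplasmic activation motif is phosphorylated by Src family kinases and recruits the kinase Syk. Fcgr2b carries an inhibitory motif in its own tail, recruits inositol and tyrosine phosphatases and dampens the same signal, so that the balance of both kinds sets how strongly a cell responds to IgG-coated material. Fcgrt is related to class I histocompatibility molecules, pairs with beta-2 microglobulin (B2m) and carries IgG through cells and out of endosomes. In the brain, the activating and inhibitory receptors are found mainly on microglia and on macrophages of its borders, and Fcgrt also on endothelium and choroid plexus.

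The libraries came from the whole right hippocampus of C57BL/6J mice aged 4.5 months. The APP/PS1 mice carry the APPSwe/Ps1dE9 transgenes, in which prion promoter elements drive an amyloid precursor protein of joined mouse and human sequence with mutations and a PS1 variant from which an exon was deleted. The WT mice carry neither. Each genotype was represented by both sexes, with 4 females and 4 males in APP/PS1 and 2 females and 2 males in WT, and each mouse gave 1 directional mRNA library. The comparison asked whether the activating and the inhibitory receptors were higher in APP/PS1 than in WT hippocampus, and whether the difference was of the same size in both sexes.

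The libraries held 36714316 to 50643565 counted read pairs, and the deepest was WT male 2. Hippocampal neuron markers summed to 5938 to 6868 normalized CPM (counts scaled to a common library size) in the 12 libraries. Most of that sum came from Camk2a and Snap25, with means of 3305 and 2225 CPM in APP/PS1. The sum of choroid plexus markers was 3849 CPM in APP/PS1 female 1, 4036 CPM in WT female 2 and 6916 CPM in APP/PS1 male 2, against 23.6 to 42.0 CPM elsewhere. WT male 2 also stood apart in neutrophil markers, which summed to 8.67 CPM there, to 1.36 CPM in APP/PS1 male 1 and to at most 0.399 CPM in every other library. It held 175 counts of S100a8, 199 of S100a9 and 54 of Retnlg, which are abundant granulocyte transcripts, where no other library held more than 12, 38 and 6. Neutrophils carry Fc gamma receptors, so fold changes of the receptors are given below with and without WT male 2 where that library moves them. Markers of B cells, natural killer cells and mast cells were close to 0, at most 0.715, 0.438 and 0.241 CPM in sum. The B cell sum was 0.407 to 0.715 CPM in APP/PS1 and 0.263 to 0.344 CPM in WT, with at most 16 counts of any marker. Its part in the levels below was not tested.

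Of the 6 genes, 5 lie on chromosome 1 or 3 and the low-affinity receptors are neighbours (GRCm38, GENCODE M21). Fcgr2b (ENSMUSG00000026656) is at chr1:170958617-170976547 on the minus strand, Fcgr4 (ENSMUSG00000059089) at chr1:171018920-171029761 on the plus strand, Fcgr3 (ENSMUSG00000059498) at chr1:171051174-171064935 on the minus strand and Fcer1g (ENSMUSG00000058715) at chr1:171229572-171234365 on the minus strand. Fcgr1 (ENSMUSG00000015947) is at chr3:96282909-96293969 and Fcgrt (ENSMUSG00000003420) at chr7:45092990-45103851, both on the minus strand.

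Fcgr3 and Fcgr2b are opposite in function and close to identical in sequence over the part that binds IgG, which bears on how their reads can be told apart. In their best ungapped coding alignment 491 of 509 bases were identical (96.5%), against 286 of 461 (62.0%) for Fcgr3 and Fcgr4. Their longest identical coding run was 129 bases, at chr1:171054167-171057792 in Fcgr3 and chr1:170966674-170968081 in Fcgr2b, and it crosses from exon 3 into exon 4 in both genes. It is printed with the exon 3 part, 102 bases, in lower case and the exon 4 part in capitals.
Fcgr3 and Fcgr2b shared run: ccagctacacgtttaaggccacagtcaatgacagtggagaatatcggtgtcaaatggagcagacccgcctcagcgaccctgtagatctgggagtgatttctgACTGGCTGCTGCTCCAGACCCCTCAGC
Of the 50-base windows of Fcgr3 transcripts, 166 of 1733 (9.58%) also occurred in Fcgr2b transcripts, whereas no 150-base window, the length of one read, was shared between any 2 of the 6 genes. Fcgr1, Fcgr4, Fcer1g and Fcgrt shared no 50-base window with any other gene. Fcgr2b transcripts shared 395 of 5685 50-base windows (6.95%) with 146 other genes, Fcgr3 included, and 114 of 5932 150-base windows (1.92%) with 4 genes outside the 6. Counts of Fcgr3 and Fcgr2b are therefore uncertain for read pairs trimmed to a short length, those of Fcgr2b also for full-length reads from these windows, and how such pairs were counted is not given in the sources used here. Fcgr2b also shares 155 exonic bases with the antisense gene Gm38204.

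The promoters of the receptors are shown as a description, and their part in the levels of these genes was not tested. All 6 genes had an entry in the RefSeq promoter table (GRCm38.p6), and the 250 bases before the start site were searched on both strands for GAGGAA, the core of the site bound by PU.1, the myeloid transcription factor, and for TTCNNNGAA, the gamma-activated site. Matches are in capitals, and no match of one motif overlapped one of the other.
Fcgr1 promoter, chr3:96293970-96294219, minus strand: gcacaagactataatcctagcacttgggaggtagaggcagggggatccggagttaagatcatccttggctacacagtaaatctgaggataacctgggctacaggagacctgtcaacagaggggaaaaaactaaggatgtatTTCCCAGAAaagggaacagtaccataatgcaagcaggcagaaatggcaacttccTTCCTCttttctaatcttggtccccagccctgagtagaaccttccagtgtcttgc
Fcgr3 promoter, chr1:171059404-171059653, minus strand: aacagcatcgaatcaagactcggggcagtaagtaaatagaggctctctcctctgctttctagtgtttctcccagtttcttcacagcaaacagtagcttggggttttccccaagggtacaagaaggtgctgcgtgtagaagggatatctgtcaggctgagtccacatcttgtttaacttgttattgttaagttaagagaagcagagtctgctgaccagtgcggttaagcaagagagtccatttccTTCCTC
Fcgr4 promoter, chr1:171018676-171018925, plus strand: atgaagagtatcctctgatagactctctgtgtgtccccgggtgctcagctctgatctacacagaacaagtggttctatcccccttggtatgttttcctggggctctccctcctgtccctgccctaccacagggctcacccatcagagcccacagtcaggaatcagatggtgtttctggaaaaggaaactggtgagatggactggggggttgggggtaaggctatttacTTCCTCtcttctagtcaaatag
Fcgr2b promoter, chr1:170976072-170976321, minus strand: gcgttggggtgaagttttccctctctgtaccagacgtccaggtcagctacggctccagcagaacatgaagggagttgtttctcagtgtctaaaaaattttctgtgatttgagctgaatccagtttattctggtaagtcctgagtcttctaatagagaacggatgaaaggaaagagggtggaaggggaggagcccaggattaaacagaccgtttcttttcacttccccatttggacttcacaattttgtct
Fcer1g promoter, chr1:171234350-171234599, minus strand: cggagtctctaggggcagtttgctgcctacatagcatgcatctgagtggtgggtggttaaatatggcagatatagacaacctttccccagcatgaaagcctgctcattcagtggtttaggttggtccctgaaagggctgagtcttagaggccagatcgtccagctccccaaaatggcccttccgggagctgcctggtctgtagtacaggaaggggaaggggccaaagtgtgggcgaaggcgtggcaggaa
GAGGAA was found once in each of the 3 activating receptor promoters, on the strand opposite to transcription, 49, 0 and 16 bases before the start of Fcgr1, Fcgr3 and Fcgr4. It was not found in the windows of Fcgr2b, Fcer1g or Fcgrt, and 23.3% of all 32851 promoter windows of this length held it. TTCNNNGAA was found in the Fcgr1 window alone among the 6 genes, and 7.02% of all windows held it. Fcgrt is not printed, since it was not called and held no match. The Fcgr3 start used here is one of 2 in the RefSeq table and lies inside the GENCODE gene, which has transcripts that begin further upstream. The Fcgr2b window also lies wholly inside its GENCODE gene, which reaches 170976547. The sequence upstream of that end was not searched, so the absence of GAGGAA holds for the printed window only.

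With both sexes combined, 4 of the 5 tested genes were higher in APP/PS1 than in WT hippocampus at a false discovery rate (FDR) below 0.1, against 1.76% of all 14008 genes tested. The 4 were both testable activating receptors, the inhibitory receptor and the signalling subunit, with log2 fold changes (LFCs) between 0.77 and 1.13. Fcgrt was the gene that did not pass, with an LFC of -0.0035 ± 0.075 (SE). These p-values come from edgeR's quasi-likelihood test with Benjamini-Hochberg adjustment over all genes tested, and the median LFC of all genes was 0.010. In bulk tissue, more cells of a type and more RNA per cell cannot be told apart. Among 12 microglial markers, 10 were also higher in APP/PS1 mice, with a median LFC of 0.67 over the list.

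**Figure D1:**
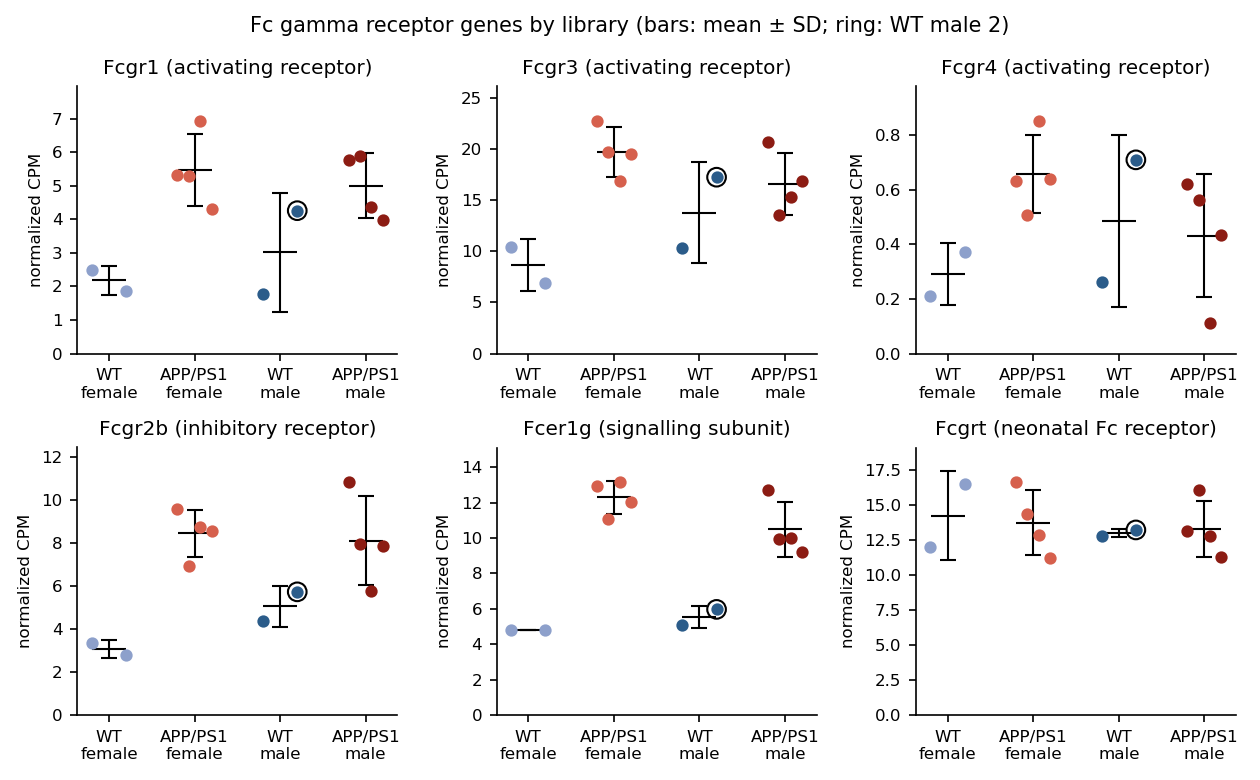
Normalized CPM (y axis) of the 6 genes in each of the 12 libraries, by group (x axis), with points for libraries, horizontal bars for group means, error bars for the SD and a ring around WT male 2. Fcgr2b and Fcer1g lie higher in all 8 APP/PS1 libraries than in the 4 WT libraries, whereas WT male 2 reaches into the APP/PS1 range for Fcgr1, Fcgr3 and Fcgr4, and Fcgrt overlaps throughout.

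Fcer1g, the signalling subunit on which surface expression of the activating receptors depends, had the smallest adjusted p of the 5 tested genes. It was at 12.9, 11.1, 13.1 and 12.04 CPM in the APP/PS1 females and at 4.82 and 4.81 CPM in the WT females. In males it was at 12.7, 9.96, 10.02 and 9.24 CPM in APP/PS1 and at 5.11 and 5.97 CPM in WT. All 8 APP/PS1 libraries lay above all 4 WT libraries, which held for 1.31% of all genes tested. Its LFC was 1.13 ± 0.11 (SE, adjusted p = 1.7e-04), a 2.18-fold difference, and it passed within each sex, with an LFC of 1.34 in females (adjusted p = 0.0021) and one of 0.91 in males (adjusted p = 0.037). The male call was lost when WT male 1 (adjusted p = 0.127) or WT male 2 (adjusted p = 0.208) was left out, and likewise for APP/PS1 male 2 (adjusted p = 0.118), although the LFC stayed between 0.80 and 1.04. With both sexes combined it passed under all 22 alternatives, with adjusted p between 6.2e-18 and 0.0057.

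Fcgr2b, the inhibitory receptor, was at 9.58, 6.95, 8.75 and 8.58 CPM in the APP/PS1 females and at 3.36 and 2.79 CPM in the WT females. In males it was at 10.8, 7.94, 5.79 and 7.87 CPM in APP/PS1 and at 4.37 and 5.73 CPM in WT. It was the other of the 2 genes whose genotypes did not overlap over all libraries, although the lowest APP/PS1 male and WT male 2 were nearly level. The LFC over both sexes was 1.07 ± 0.17 (SE, adjusted p = 0.012). In females it was 1.47 (adjusted p = 0.029) and in males 0.67, which did not pass (adjusted p = 0.620). Without WT male 2 the LFC over both sexes was 1.16 (adjusted p = 0.021) and that in males 0.88 (adjusted p = 0.998). The call in females was lost without WT female 1 (adjusted p = 0.214) or WT female 2 (adjusted p = 0.175), each of which leaves 1 WT female.

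Fcgr3, the low-affinity activating receptor, pairs with the gamma chain and binds IgG in complexes. It was at 22.7, 19.7, 16.9 and 19.5 CPM in the APP/PS1 females, all above the 10.4 and 6.89 CPM of the WT females. In males it was at 20.7, 13.6, 15.3 and 16.8 CPM in APP/PS1 and at 10.3 and 17.2 CPM in WT. WT male 2, the library with neutrophil transcripts, lay above 3 of the 4 APP/PS1 males. The LFC over both sexes was 0.77 ± 0.17 (SE, adjusted p = 0.076), and 0.96 without WT male 2 (adjusted p = 0.044). In females it was 1.23 (adjusted p = 0.096), a call that was lost under 14 of 22 alternatives, among them scaling by trimmed means of M-values (TMM, adjusted p = 0.111), the CPM filter (adjusted p = 0.119) and no filter (adjusted p = 0.459). It was also lost without any 1 of APP/PS1 female 1, 2 or 4, WT female 1 or 2, or APP/PS1 male 2, 3 or 4, with adjusted p between 0.102 and 0.310. In males the LFC was 0.32, which did not pass (adjusted p = 0.998), and it was 0.73 without WT male 2 (adjusted p = 0.998) and 0.0065 without WT male 1 (adjusted p = 0.998). With both sexes combined the Fcgr3 call was lost without any 1 of APP/PS1 female 2, APP/PS1 female 4, WT female 1, WT female 2, APP/PS1 male 2, APP/PS1 male 3 or WT male 1, with adjusted p between 0.103 and 0.260.

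Fcgr1, the high-affinity receptor that binds monomeric IgG, was at 5.32, 5.30, 6.93 and 4.32 CPM in the APP/PS1 females and at 2.49 and 1.87 CPM in the WT females. In males it was at 5.77, 5.90, 4.37 and 3.97 CPM in APP/PS1 and at 1.76 and 4.26 CPM in WT. Of the 8 APP/PS1 libraries, 7 lay above the highest WT library, which was WT male 2. The LFC over both sexes was 1.05 ± 0.25 (SE, adjusted p = 0.080), and 1.40 without WT male 2 (adjusted p = 0.0081). The Fcgr1 call was lost without any 1 of APP/PS1 female 1, 2 or 3, WT female 1 or 2, or APP/PS1 male 1 or 3, with adjusted p between 0.108 and 0.290. Within females the LFC was 1.38 and did not pass (adjusted p = 0.172). It passed there with edgeR's likelihood ratio test (adjusted p = 0.012), with DESeq2 (adjusted p = 0.0041), and without any 1 of APP/PS1 male 2, APP/PS1 male 4, WT male 1 or WT male 2, with adjusted p between 0.036 and 0.076. In males the LFC was 0.72 (adjusted p = 0.903) and did not pass under any of 22 alternatives. It depended on the WT male kept, at 1.49 without WT male 2 (adjusted p = 0.462) and 0.20 without WT male 1 (adjusted p = 0.928).

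Fcgr4, the activating receptor that prefers the mouse subclasses IgG2a and IgG2b, was barely detected. It had 5 to 37 counts a library, and its levels were 0.63, 0.51, 0.85 and 0.64 CPM in the APP/PS1 females and 0.21 and 0.37 CPM in the WT females. In males it was at 0.62, 0.56, 0.11 and 0.43 CPM in APP/PS1 and at 0.26 and 0.71 CPM in WT, so the male groups overlapped from end to end. The mean difference was 0.46 on the log2 scale with a pseudocount of 0.5 counts, and an exact two-sided permutation test over the 495 splits of 8 against 4 libraries gave p = 0.388, where 0.0040 is the smallest p possible. Without WT male 2, an alternative chosen after seeing the data, the difference was 0.79 and the same exact test gave p = 0.206 over 165 splits, where 0.0121 is the smallest. A fit without the expression filter gave an LFC of 1.202 ± 0.55 (SE) in females and -0.34 ± 0.51 (SE) in males, neither of which passed (unadjusted p = 0.038 and 0.506, adjusted p = 0.768 and 1). Fcgr4 is thus a gene with few counts whose groups overlapped in males. In females the groups did not overlap, and the nearest counts were 19 (APP/PS1 female 2) and 17 (WT female 2). Among all genes past the filter, 12.5% had the 4 APP/PS1 females above both WT females.

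Fcgrt, the neonatal receptor, was at 16.6, 14.4, 12.9 and 11.2 CPM in the APP/PS1 females and at 12.01 and 16.5 CPM in the WT females. In males it was at 13.1, 16.1, 12.8 and 11.3 CPM in APP/PS1 and at 12.8 and 13.2 CPM in WT. The 3 highest values were those of the 3 libraries rich in choroid plexus markers, APP/PS1 female 1, WT female 2 and APP/PS1 male 2, and the part of that tissue in the result was not tested. Without those libraries and without factors of unwanted variation the LFC over both sexes was 0.012 (adjusted p = 0.996). Over both sexes the LFC ranged from -0.067 to 0.061 over 22 alternatives and none passed.

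**Figure D2:**
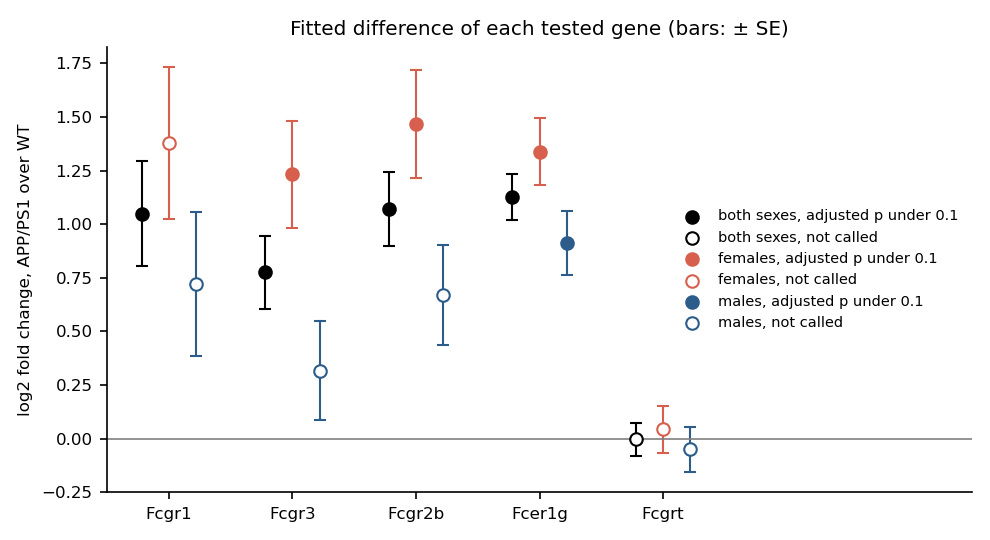
LFC of APP/PS1 over WT (y axis) for the 5 tested genes (x axis) with both sexes combined, in females and in males, with error bars for the SE and filled points where the adjusted p was below 0.1. Fcgr1, Fcgr3, Fcgr2b and Fcer1g lie above 0 in each comparison and lie higher in females than in males, and Fcgrt lies at 0.

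The sexes were then compared. In females 3 of the 5 tested genes passed, Fcgr3, Fcgr2b and Fcer1g, against 0.714% of all genes, and in males 1 did, Fcer1g, against 0.178%. With edgeR's likelihood ratio test and DESeq2, 246 and 237 of all 14008 genes were called higher in females, against 100 with the quasi-likelihood test. The count of the 5 in females was 4 with each of those tests, where Fcgr1 passed too. It was 2 with TMM scaling, the CPM filter or no filter, where Fcgr3 did not pass. It was 1 without WT female 1 or WT female 2. The 4 APP/PS1 females lay above both WT females for 4 of the 5 tested genes, and also for Fcgr4, where 12.5% of all genes tested did so. The 4 APP/PS1 males lay above both WT males for 2 of the 5, where 6.5% of all genes did so.

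The difference between the sexes was tested as an interaction, the LFC in females minus the LFC in males. It had an unadjusted p under 0.05 and a larger LFC in females for 2 of the 5 genes, against 2.06% of all genes tested, and for none of the 5 did it pass adjustment (edgeR, adjusted p = 0.997). None of the 5 passed with edgeR's likelihood ratio test or DESeq2 either, where the lowest adjusted p was 0.709. The interaction was 0.91 ± 0.33 (SE, edgeR, unadjusted p = 0.021) for Fcgr3 and 0.80 ± 0.34 (SE, edgeR, unadjusted p = 0.035) for Fcgr2b. For Fcgr1 it was 0.66 and for Fcer1g 0.42, with unadjusted p of 0.194 and 0.065 in edgeR.

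The size of these differences depended on which WT male was included. Without WT male 2 the interaction was 0.46 for Fcgr3 (edgeR, unadjusted p = 0.188), 0.55 for Fcgr2b (edgeR, unadjusted p = 0.170), 0.28 for Fcer1g (edgeR, unadjusted p = 0.253) and -0.18 for Fcgr1 (edgeR, unadjusted p = 0.675), so that none had a p under 0.05 and Fcgr1 turned sign. Without WT male 1, which leaves WT male 2 as the lone WT male, it was 1.19, 0.97, 0.53 and 1.12 in the same order, and all 4 had an unadjusted p under 0.05. Each of these fits has 1 WT male, whose spread is taken from the other groups. WT male 2 held the highest WT level of Fcgr1, Fcgr3, Fcgr4, Fcgr2b and Fcer1g, and its microglial markers summed to 392 CPM, within the 333 to 394 CPM of the WT libraries. Its border macrophage markers summed to 31.7 CPM, the highest of the 12 libraries. The part of neutrophil or other blood-borne transcripts in these levels was not tested.

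**Figure D3:**
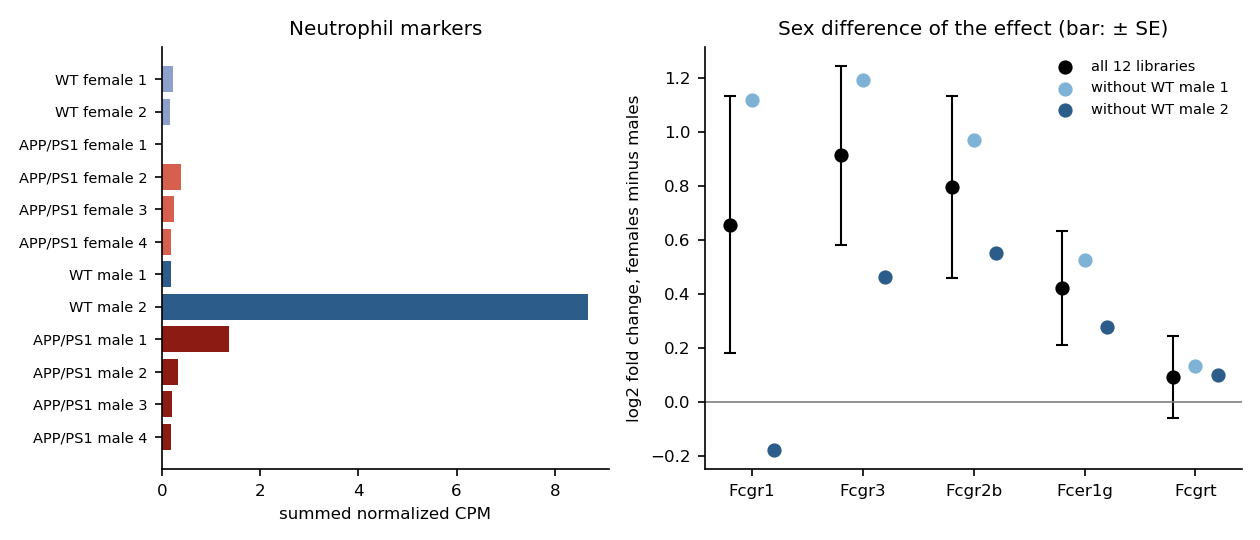
Left, the summed normalized CPM of 7 neutrophil markers in each library, with WT male 2 at 8.67 CPM. Right, the interaction, the LFC in females minus the LFC in males (y axis), for the 5 tested genes with all 12 libraries (black, error bars for the SE), without WT male 1 and without WT male 2. The values without WT male 2 are the lowest of the 3 for Fcgr1, Fcgr3, Fcgr2b and Fcer1g.

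Levels were compared between genes only per exon length, as RPKM, the normalized CPM divided by the exon length in kilobases. Over the 12 libraries the mean was 10.7 ± 3.78 RPKM (SD) for Fcer1g, 9.13 ± 2.74 for Fcgr3, 6.46 ± 0.907 for Fcgrt, 1.68 ± 0.632 for Fcgr1, 1.19 ± 0.434 for Fcgr2b and 0.393 ± 0.175 for Fcgr4. These means and SDs pool both genotypes, and the order was also read within each library. Fcer1g lay above Fcgr3 in 8 of 8 APP/PS1 libraries and in 1 of 4 WT libraries, with means of 13.03 and 10.5 RPKM in APP/PS1 and of 5.92 and 6.46 in WT. In WT, Fcer1g, Fcgr3 and Fcgrt (6.49 RPKM) lay within the spread of Fcgr3, 2.50 RPKM (SD, n = 4). Fcgr1 lay above Fcgr2b in 8 of 8 APP/PS1 libraries and in 3 of 4 WT libraries. That order depends on the length used, because Fcgr2b has 5790 exonic bases of which 1020 are coding, and per coding length Fcgr1 lay above Fcgr2b in 0 of the 12 libraries. Per coding length the mean was 6.74 RPKM for Fcgr2b and 3.59 for Fcgr1.

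The activating receptors together were at 10.6 to 15.7 RPKM in the APP/PS1 libraries, with a median of 13.2, and at 7.13, 4.99, 6.82 and 12.1 RPKM in the WT libraries, of which the last is WT male 2. Fcgr3 made up most of that sum. The inhibitory receptor was at 1.0002 to 1.87 RPKM in APP/PS1, with a median of 1.43, and at 0.580, 0.481, 0.755 and 0.990 RPKM in WT. Both medians were thus higher in APP/PS1 libraries, against 6.98 and 0.668 RPKM in WT, and the ratio of activating to inhibitory level was 9.16 ± 1.32 (SD, n = 8) in APP/PS1 and 10.99 ± 1.58 (SD, n = 4) in WT, or 10.6 ± 1.64 (SD, n = 3) without WT male 2. The ratio ranged from 7.69 to 11.5 in APP/PS1 and from 9.04 to 12.3 in WT, so the genotypes overlapped. The ratio is scaled by the length chosen and was 3.47 and 4.15 per coding length, in the same order.

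**Figure D4:**
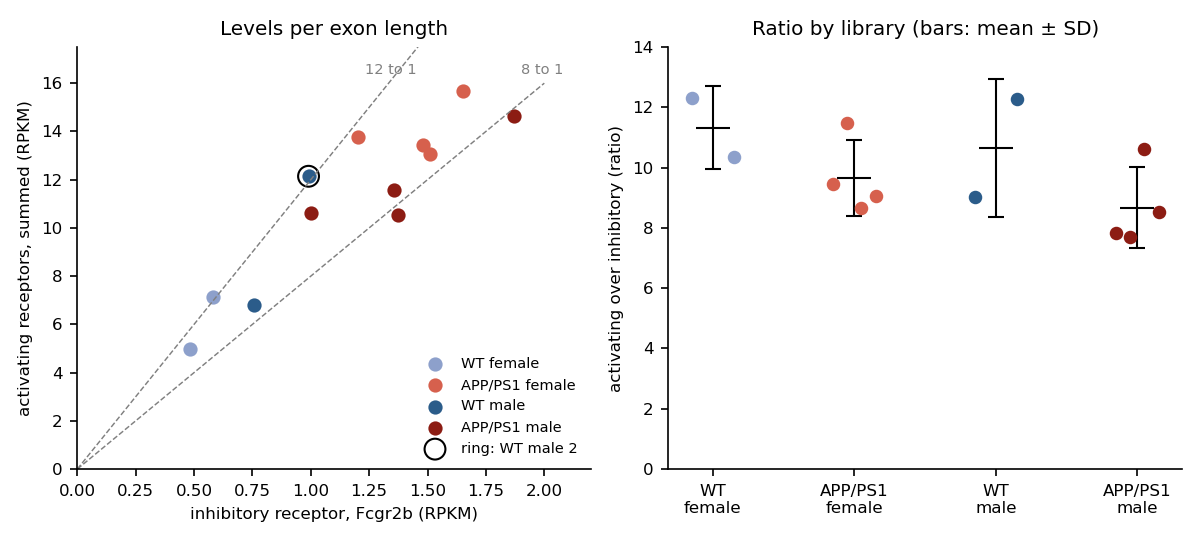
Left, the summed level of the 3 activating receptors (y axis, RPKM) against Fcgr2b (x axis, RPKM) in each library, with dashed lines at ratios of 8 and 12 to 1 and a ring around WT male 2. Right, the ratio by group (points for libraries, bars for mean ± SD). The libraries spread along the lines, and the ratio lies between 7.69 and 12.3 in all of them.

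The single genes of that ratio can be set side by side as counts of the same library. Fcgr3 had 2.23 ± 0.384 (SD, n = 8) times the counts of Fcgr2b in APP/PS1 and 2.73 ± 0.375 (SD, n = 4) in WT, with ranges of 1.71 to 2.83 and 2.36 to 3.10. No test was made of these ratios, since they are built from genes chosen with their results known.

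Of the other genes that encode Fc receptors or their partners, 14 were listed, 3 passed the expression filter and 1 was higher in APP/PS1 mice, against 1.76% of all genes tested. This was B2m, the light chain of Fcgrt and of class I histocompatibility molecules, at 83.0 to 131 CPM in APP/PS1 and 58.2 to 68.2 CPM in WT (LFC 0.75 ± 0.090 SE, adjusted p = 0.0025). It rose while Fcgrt, the heavy chain, had an LFC close to 0. Fcrls, an Fc receptor-like gene expressed by microglia, had an LFC of 0.84 that did not pass (adjusted p = 0.444), and Trim21, a cytosolic antibody receptor, one of 0.32 (adjusted p = 0.487). The median LFC of the 3 was 0.75, against 0.010 over all genes tested. The other 11, among them the IgE receptor chains Fcer1a and Ms4a2 and the IgM receptor Fcmr, were under the filter.

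The heavy chains of IgG, the ligand of these receptors, were almost absent as transcripts. The list searched also held chains of other immunoglobulin classes, such as IgM. Of 13 genes for immunoglobulin constant regions and the joining chain, 1 passed the filter, Ighm, the heavy chain of IgM, at 7.78 to 18.004 CPM in APP/PS1 and 4.26 to 7.78 CPM in WT (LFC 0.93 ± 0.20 SE, adjusted p = 0.063, against 1.76% of all genes called higher). The IgG heavy chain genes Ighg1, Ighg2b, Ighg2c and Ighg3 had at most 15 counts in any library, and B cell markers summed to at most 0.715 CPM. The Ighm call did not hold under 12 of 22 alternatives.

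Among 28 transducers of the activating signal, 25 were tested and 3 passed, all higher in APP/PS1 mice, against 1.76% of all genes tested. Lat2, an adaptor of Fc receptor signalling in myeloid cells, had an LFC of 1.298 (adjusted p = 0.036), the kinase Tec one of 0.82 (adjusted p = 0.035) and Vav1, a guanine nucleotide exchange factor of blood cells, one of 0.68 (adjusted p = 0.076). Syk, the kinase that binds the phosphorylated gamma chain, did not pass (LFC 0.27 ± 0.14 SE, adjusted p = 0.564). The median LFC of the 25 was 0.16, against 0.010 over all genes tested. The count was 6 with edgeR's likelihood ratio test and with DESeq2, and it was 1 without APP/PS1 female 1 and 0 without WT female 2.

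Among 12 transducers of the inhibitory signal, 11 were tested and none passed in the edgeR quasi-likelihood test, where 3 had an unadjusted p under 0.05. With 11 genes, a count of 0 is near the 1.76% of all genes that were called higher. Ptpn6, which encodes the tyrosine phosphatase SHP-1, had an LFC of 1.02 ± 0.25 (SE, adjusted p = 0.105), and Inpp5d, which encodes the inositol phosphatase SHIP1 that Fcgr2b recruits, one of 0.50 ± 0.13 (SE, adjusted p = 0.129). With edgeR's likelihood ratio test and with DESeq2, 2 of the 11 passed, where 337 and 308 of all 14008 genes were called higher. The median LFC was -0.023, against 0.010 over all genes tested. Several of these genes, such as Ptpn11 and Cbl, are expressed by neurons and most other cells. The activating list also holds genes of that kind, and the part of such expression in either median was not tested.

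Further downstream, 19 of 20 genes of phagocytosis and of the NADPH oxidase were tested and 5 passed, all higher in APP/PS1 mice, against 1.76% of all genes tested, with a median LFC of 0.38 over the 19 and of 0.010 over all genes. Cybb, the catalytic subunit of the phagocyte oxidase, was at 0.70 to 3.50 CPM in APP/PS1 and 0.37 to 0.63 CPM in WT (LFC 2.19 ± 0.33 SE, adjusted p = 0.0077). Of the actin regulators, Dock2, an activator of Rac, had an LFC of 0.80 (adjusted p = 0.0070), Nckap1l, a subunit of the WAVE complex of blood cells, one of 0.63 (adjusted p = 0.0070) and Myo1f, a myosin of myeloid cells, one of 1.16 (adjusted p = 0.013). Rac1, Cdc42 and Myo5a, which most cells express, had LFCs of -0.032, 0.083 and -0.0008.

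**Figure D5:**
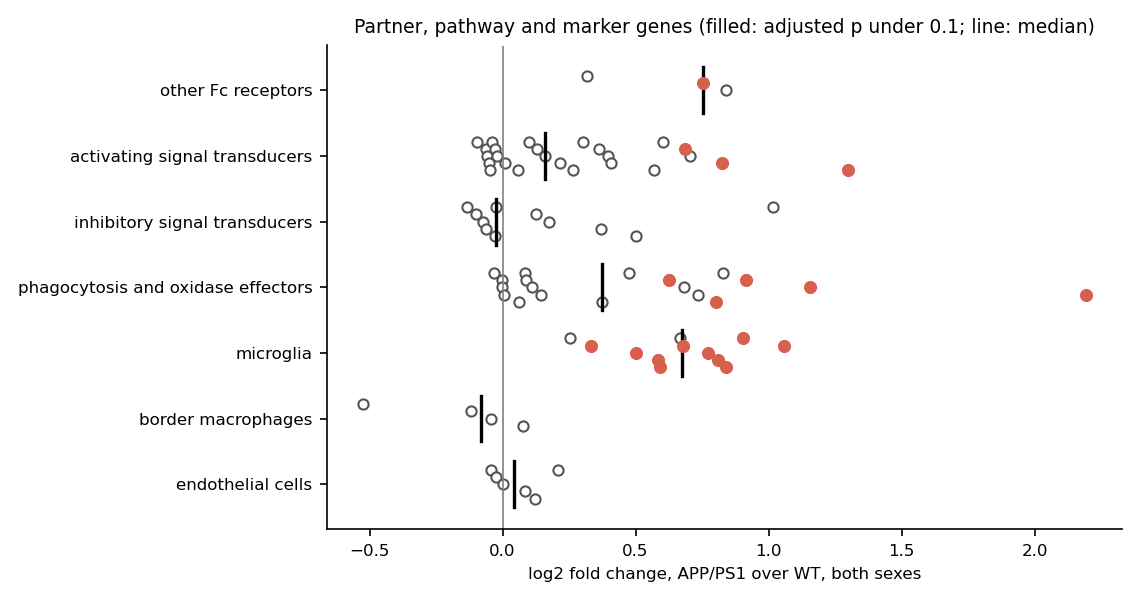
LFC of APP/PS1 over WT with both sexes combined (x axis) of every tested gene in 7 lists (y axis), with filled points where the adjusted p was below 0.1 and a vertical line at the median of each list. Called genes lie among the other Fc receptors, the activating transducers, the effectors and the microglial markers, and none lies among the inhibitory transducers, border macrophages or endothelial cells.

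Markers of the cell types of the tissue were measured in the same libraries, and their part in the receptor differences was not tested. The microglial markers called included Gpr34, Olfml3, Siglech, Aif1, P2ry13, P2ry12, Csf1r, Itgam and Sall1, with LFCs from 0.33 to 1.06, and Cx3cr1 (0.67, adjusted p = 0.189) and Tmem119 (0.25, adjusted p = 0.388) were not. Their summed level was 507 to 738 CPM in APP/PS1 and 333 to 394 CPM in WT. Of 8 border macrophage markers 4 were tested and none passed, with sums of 18.5 to 30.3 CPM outside WT male 2. Endothelial markers, 6 of 6 tested, had LFCs from -0.045 to 0.21 and none passed.

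Finally, the genes most like each receptor were sought by the Pearson correlation of log2 CPM after the 4 group means were removed, over 12 libraries. With the group means removed, the highest of about 14008 correlations are large for any gene, so these names are a description. Fcgr2b was closest to Entpd1 (r = 0.97, Spearman 0.99), an ectonucleotidase of microglia, then to Zfp362 (r = 0.91) and Nlrx1 (r = 0.89). Fcgr1 was closest to Pik3ap1 (r = 0.98, Spearman 0.97), an adaptor of phosphoinositide 3-kinase in immune cells, then to Bin2 (r = 0.95) and Synpo2 (r = 0.92). Fcer1g was closest to Zkscan1 (r = 0.95), Pxmp4 (r = 0.95) and Srbd1 (r = 0.90), and Fcgr3 to Chrm3 (r = 0.90), Amigo2 (r = 0.90) and Depdc5 (r = 0.88). Fcgrt was closest to Phkb (r = 0.96), Saxo2 (r = 0.96) and Ccdc173 (r = 0.96). Among the members themselves the highest value was r = 0.77 (Spearman 0.82) between Fcgr2b and Fcer1g, followed by 0.64 between Fcgr2b and Fcgr3, and those of Fcgrt with the other 4 lay between -0.21 and 0.20.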

How the data were processed

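Per the labels and the study's methods, the authors trimmed paired reads (Trimmomatic), mapped them to GRCm38 (STAR) and deposited raw counts per Ensembl gene (HTSeq), 55573 genes in 12 libraries. Versions, strand setting and annotation release are not given in the sources used here. Names, positions and lengths came from GENCODE M21 (55480 genes matched) and promoters from RefSeq. The filter kept genes whose log2 CPM reached 1 in 3 or more libraries, as the study words its filter. The CPM filter, an alternative, asked for a CPM of 1 in 3 or more libraries. It kept 15521 genes, the number that the study reports. A single edgeR 4.0.16 model over 4 groups had upper-quartile scaling, 2 factors of unwanted variation (RUV, from all genes but the top 5000), robust quasi-likelihood tests and Benjamini-Hochberg adjustment over 14008 genes. CPM used the scaled library sizes. Alternatives included the likelihood ratio test, which the study used, DESeq2 1.42.0, other scalings, filters and factors, a replicate block and leaving out each library. Depth sets the precision: Fcgr4, at 5 to 37 counts, was too low for the filter. Each library is labelled as a separate mouse sample, and p-values measure the spread between them.

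The genes and lists were chosen with earlier results of these data known. The named genes were the 6 receptors, up to 5 called genes of smallest p per pathway list, Syk, Inpp5d, Ptpn6 and B2m, cell type markers, and the 3 genes most like each tested receptor. Fcrls, Trim21, Ptpn11, Cbl, Rac1, Cdc42 and Myo5a were named after their values were seen. Single values of a few genes of the lists are not reported here.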

Additional observations from a re-analysis of the deposited data

Results flagged for a closer look

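The LFC of 2 genes differed between the sexes at an unadjusted p under 0.05 in edgeR's interaction test, and neither passed adjustment (adjusted p = 0.997). For Fcgr3 the LFC in females minus that in males was 0.91, between 0.46 and 1.253 over 21 alternatives, and its p rose above 0.05 under 4 of them. For Fcgr2b it was 0.80, between 0.55 and 1.02, and its p rose above 0.05 under 9. The alternatives that took both above 0.05 left out WT male 2 (the library with neutrophil transcripts), WT female 2 or the 3 choroid plexus-rich libraries. No level of the 6 genes stood apart from its group of 4 APP/PS1 libraries by Dixon's test. With 4 values that test can flag only a very large gap. It cannot be run on the groups of 2 WT libraries, which include WT male 2.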

How the results depend on the processing

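With both sexes combined, Fcer1g passed under all 22 alternatives and Fcgr2b under 21. The number of the 5 tested genes called was 4, against 2 with no expression filter, 2 at an FDR of 0.05 and 1 without the 3 choroid plexus-rich libraries and RUV factors, where Fcgr1 (LFC 0.89), Fcgr3 (0.60) and Fcgr2b (0.98) lost their call, 1 gene was called in females and 0 in males, and 0 had an interaction p under 0.05. With no filter Fcgr1 (1.03), Fcgr3 (0.72) and 1 of 2 interactions were lost, with the CPM filter Fcgr3 (0.76), and at an FDR of 0.05 Fcgr1 (1.05) and Fcgr3 (0.77). Leaving out 1 library gave 2 to 4 genes, 1 to 4 in females, 0 to 1 in males and 0 to 4 interactions, with LFCs of 0.76 to 1.40 for Fcgr1 and 0.60 to 0.96 for Fcgr3, and -0.18 to 1.12 for the Fcgr1 interaction. Called genes numbered 6 (activating transducers), 2 (inhibitory transducers) and 9 (effectors) with the likelihood ratio test and with DESeq2, 5 activating transducers and 0 immunoglobulins with no filter, 0 immunoglobulins at an FDR of 0.05, 1 inhibitory transducer with 1 RUV factor, and 0, 0 and 1 (activating, immunoglobulin, effector) without the choroid plexus-rich libraries. Leaving out 1 library gave 0 to 4, 0 to 2 and 4 to 8 of the same 3 lists, 0 to 1 immunoglobulins and 1 to 2 other Fc receptors. Over both sexes, 337 (likelihood ratio test) and 308 (DESeq2) of all 14008 genes were called higher, against 246 with the quasi-likelihood test. The activating to inhibitory ratio per coding length was 3.47 in APP/PS1 and 4.15 in WT.

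Replicate numbers are shared between groups, and 14 same-numbered pairs had correlations of -0.64 to 0.70, of which 4 were over 0.1. The 2 libraries of a WT group deviate from their mean as mirror images. Their correlations with any other library are thus opposite in sign, such as -0.64 and 0.64 for APP/PS1 female 1 with WT female 1 and 2. These correlations therefore cannot decide whether the numbers pair the libraries. With the replicate block 2 genes were called, Fcgr1 (1.204) and Fcgr3 (0.91) losing their call, 2 in females, where Fcgr3 (1.36, adjusted p = 0.156) lost its call, and 0 in males.

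The LFC of Fcgrt changed sign near 0, to 0.061 (block) and 0.012 (without choroid plexus-rich libraries) over both sexes, to -0.051 in females, 0.032 in males and -0.083 for the interaction without RUV factors, and to 0.033 in males with the block. Leaving out 1 library gave -0.067 to 0.052 over both sexes, -0.060 to 0.13 in females, -0.12 to 0.029 in males and -0.019 to 0.18 for the interaction. The causes of these shifts were not tested.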

Other observations

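Microglial markers rose with the receptors, so the level of each gene was also set against the summed CPM of the 12 microglial markers in the same library, as a description with no test. Per 1000 CPM of marker, Fcer1g was at 18.6 ± 2.25 (SD, n = 8) in APP/PS1 and 13.8 ± 1.31 (SD, n = 4) in WT. Its ranges of 14.9 to 21.98 and 12.2 to 15.2 overlapped at their ends. Fcgr2b was at 13.4 ± 1.72 against 10.7 ± 2.95, and Fcgr1 at 8.44 ± 0.790 against 6.84 ± 2.76. Fcgr3 was at 29.8 ± 5.71 against 29.5 ± 10.1. WT male 2 had the highest value of the 12 libraries for Fcgr3 (44.0), Fcgr1 (10.9) and Fcgr4 (1.81), and without it the WT means were 24.7 for Fcgr3, 9.43 for Fcgr2b and 5.50 for Fcgr1. Fcgrt, which was not called, was at 22.1 ± 3.37 in APP/PS1 and 36.8 ± 8.62 in WT.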
